A study of Mus musculus with 15 samples.

Results

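The liver library of embryonic day 18.5 (E18.5), the last before birth, was set against the 3 libraries of E15.5 to E17.5, and the library of postnatal day 1 (D1) was used to follow each gene after birth. These were 4 of the 15 libraries of the series, plus D1, with 1 library at each age and no replicate at E18.5. Genes were compared when they reached 10 FPKM (fragments counted on a transcript, scaled to transcript length and library size) in any of the 4 libraries and had a valid estimate in all 4, which 6812 of the 44482 chromosomal entries did. A gene was called above the range when its E18.5 value, as FPKM + 1, was at least 1.5-fold higher than the highest of the 3 preceding days, and below the range when it was at least 1.5-fold lower than the lowest of them.

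All libraries came from whole liver of C57BL/6 mice, a standard inbred strain, with embryonic age counted from the vaginal plug and no genetic change or treatment in the labels. The other ages sampled were E12.5, E13.5 and E14.5 before this window, and D3, D5 and postnatal weeks 1, 2, 3, 6 and 8 (W1 to W8) after it. The labels do not give the sex of the animals or whether livers were pooled. The 3 preceding days are 3 ages rather than replicates, so their spread holds development as well as error, and being outside their range carries no p-value.

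In the fetus the liver is the main organ that makes blood cells, and erythroblasts fill much of it alongside immature hepatocytes. Around birth the blood-forming cells leave for the bone marrow, while hepatocytes take up the adult tasks of releasing glucose, making bile acids, oxidizing fat, detoxifying drugs and secreting plasma proteins. Cytochrome P450 enzymes oxidize steroids, fatty acids and drugs, and serpins are secreted inhibitors of proteases or carriers of hormones. Because whole liver was measured, fewer cells of a type and less RNA per cell cannot be told apart.

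The estimated depth was 17.7 M fragments (M, mega) at E18.5, 18.9 to 20.1 M at the 3 preceding days and 16.6 M at D1, and 3 fragments on a kilobase of transcript correspond to 0.149 to 0.181 FPKM in these 5 libraries. Hepatocyte markers were abundant at E18.5 (Apoa1 15877 FPKM, Ttr 5041 FPKM, Serpina1a 1443 FPKM, Hnf4a 67.8 FPKM), whereas the estimate of Alb had failed there. Erythroid markers were present too (Alas2 425 FPKM, Slc4a1 434 FPKM), and the cholangiocyte markers Krt7 and Krt19 were at 1.58 and 1.34 FPKM. Estimates of 7 genes failed in at least 1 of the 4 libraries, namely Hba-a1, Hba-a2, Hbb-bs and Hbb-bt at some of the preceding days and Alb, Fetub and Rrbp1 at E18.5, and these genes were not compared. The E16.5 library stood apart in base composition: across genes, its difference from the mean of its neighbours E15.5 and E17.5 had a rank correlation of 0.66 with GC content, against 0.0053 for E18.5 minus the mean of the 3 days. Leaving E16.5 out gave 389 genes above and 561 below the range. The libraries also differed in sex-linked transcripts. From E15.5 to E18.5 and at D1, Xist, made from the inactive X chromosome of females, was at 35.9, 12.5, 32, 21.3 and 0.0517 FPKM and the Y-linked gene Ddx3y at 0.0109, 0.0425, 0.0433, 1.2 and 10.7 FPKM. Age and the sex-linked content of the libraries therefore cannot be told apart.

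At E18.5, 368 genes lay above the range (5.4% of those compared) and 445 below it (6.53%). Of the genes above, 240 had already gone up in order over the 3 days and 106 had stayed within 1.5-fold across them. Among the genes below, 284 had gone down in order and 168 had stayed within 1.5-fold. Large distances were mostly upward: 45 genes were at least 4-fold above the range and 4 at least 4-fold below it, and 20 and 2 genes respectively passed 8-fold. The level of 10 FPKM was reached only at E18.5 by 217 genes, of which 118 were called above. Such genes entered through E18.5 alone, so counts of list members above the range are raised by the filter. With a filter at a mean of 10 FPKM, 267 genes were above and 395 below. The authors' 95% bounds did not overlap those of any of the 3 days for 367 of the genes above (5.39% of those compared) and 426 of those below (6.25%).

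The direction of these counts depended on scaling. The median gene was 0.28 lower on the log2 scale at E18.5 than its mean over the 3 days, and E18.5 was the lowest of the 4 values in 3710 genes (54.5%) and the highest in 1281 (18.8%). As deposited, 45.3% of the calls were above the range, against 78.9% (546 above and 146 below) when libraries were scaled by median ratios, 78.2% (549 and 153) after removal of the GC trend, and 54.8% when the libraries were made equal in distribution (539 and 444) or stripped of globins and Alas2 (414 and 341). Removal of the GC trend also takes out the median shift of each library, so it is not a separate check from median ratios. All 368 genes above stayed above with median ratios, and 146 of the 445 below stayed below. Leaving out E17.5 gave 624 above and 1460 below.

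The same rule was applied to the neighbouring ages, each against its own 3 preceding days. It placed 4.58% of 6880 genes above and 3.37% below at E16.5, 3.48% of 6778 above and 4.65% below at E17.5, and 8.01% of 6664 above and 5.01% below at D1. Genes at least 4-fold above made up 0.145% at E16.5, 0.28% at E17.5, 0.661% at E18.5 and 0.99% at D1. The upward distances of 4-fold or more thus became more frequent with each of these 4 ages. These comparisons share libraries and were not tested against each other.

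D1 mostly stayed on the side that E18.5 had taken. Of the 368 genes above the range, 269 (73.1%) were also above it at D1, compared with 9.44% of all genes. Of the 445 below, 373 (83.8%) were also below it at D1, compared with 13.8% of all genes. Both ages were set against the same 3 libraries, so the 2 calls are not independent and these shares are counts only. Relative to E18.5 itself, 114 genes above went at least 1.5-fold further at D1, 170 held within 1.5-fold, 44 came back in part and 40 came back into the range or past it. Of the genes below, 102 went further, 325 held, 3 came back in part and 15 came back into the range or past it. This second reading uses the E18.5 value both to choose the genes and to follow them, and over all genes D1 was at least 1.5-fold over E18.5 in 8.24% and under it in 7.82%. At W8, 230 of the 368 genes above were still above the fetal range (62.5%, all genes 10.1%) and 425 of the 445 below were still below it (95.5%, all genes 51.2%).

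**Figure D1:**
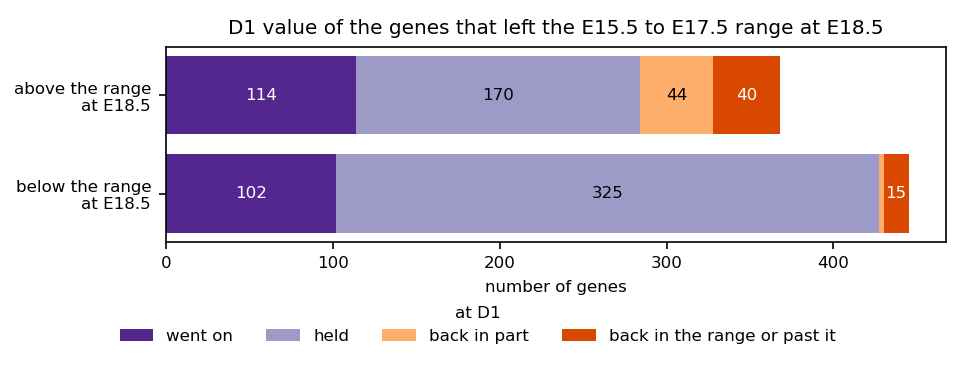
Number of genes (x axis) above and below the E15.5 to E17.5 range at E18.5, split by what D1 did relative to E18.5 with a limit of 1.5-fold. Holding or going further was the larger part in both bars, while 44 of the upper genes came back in part and 40 in full.

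For the genes farthest above the range, values are given by age, the 3 preceding days from E15.5 on, then E18.5 and D1. Cyp2c69, a P450 of the Cyp2c family, was at 0.251, 0.200, 3.63, 221 and 26.9 FPKM, so that E18.5 stood 48.0-fold over the highest preceding day on the FPKM + 1 scale and D1 came back in part. Ugt1a1, which joins bilirubin to glucuronic acid for excretion, was at 0.631, 0.968, 1.13, 69.4 and 164 FPKM. Serpina3k, a secreted serpin, was at 5.87, 7.12, 6.66, 235 and 180 FPKM, 29.1-fold over a range that had been flat. In each of these genes E18.5 was apart from all 3 preceding days, and of these 3 Ugt1a1 alone went further at D1. Ugt1a1 was not typical of its list of conjugation enzymes, where 3 of 15 compared genes were above the range and 2 below. The median log2 difference of that list from the mean of the 3 days was -0.30, beside -0.28 for all genes. By limma the log2 contrasts were 5.21 ± 0.82 for Ugt1a1 (adjusted p = 0.000371) and 4.97 ± 0.35 for Serpina3k (adjusted p = 1.24e-09). With median ratios the adjusted p was 0.153 and 0.00542, and with the GC trend removed 0.261 and 0.0196.

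Apoa5, an apolipoprotein that promotes the clearance of triglyceride, was at 1.35, 1.60, 2.50, 48.9 and 533 FPKM. G6pc, the catalytic subunit of glucose-6-phosphatase and the last step of glucose release, was at 0.666, 0.984, 4.03, 64.0 and 104 FPKM. Igfbp2, a binding protein of insulin-like growth factors, was at 15.2, 27.4, 91.7, 861 and 5911 FPKM. E18.5 stood 14.2-fold, 12.9-fold and 9.31-fold over the highest preceding day in these genes, and all 3 were higher again at D1. The pseudogene Serpina4-ps1 took another course, at 0.0416, 0.121, 1.21, 32.8 and 0.833 FPKM, back in the range at D1.

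**Figure D2:**
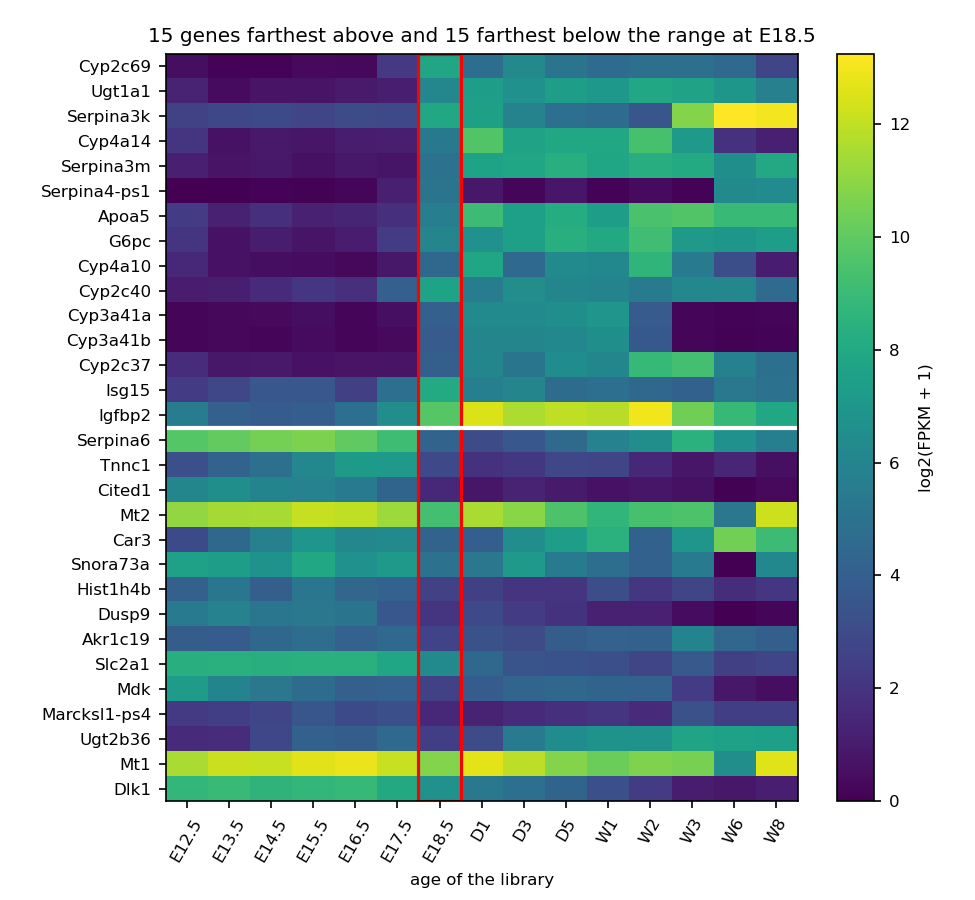
log2(FPKM + 1) (colour) of the 15 named genes farthest above and the 15 farthest below the range at E18.5 (rows, split by the white line) in the 15 libraries by age (columns), with E18.5 boxed in red. Most of the upper genes stayed high after birth, while Mt1 and Mt2 in the lower block were high again at D1.

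By limma, a linear model that pools the spread over genes, 133 genes were higher (1.95%) and 36 lower (0.528%) at E18.5 than the mean of the 3 days at an adjusted p under 0.05, and all of these were also outside the range. The fit assumes that the single E18.5 library varies like the 3 preceding ages. It gave 1 gene, Serpina3k, higher and 0 lower with median ratios (823 genes at an unadjusted p under 0.05) or with the GC trend removed (1030 such genes), and 15 higher and 3 lower without E17.5, so the calls by limma depended on these settings and the range is used below as the description. All counts and adjusted p-values by limma given below are for the values as deposited, and none but Serpina3k passed with median ratios or with the GC trend removed. Its largest upward and downward contrasts with their standard errors were 6.86 ± 0.72 (log2) for Cyp2c69 and -5.72 ± 0.44 for Serpina6. The shares over all genes to set beside the list counts below were 5.4% above and 6.53% below at E18.5. At D1 they were 9.44% and 13.8%.

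The list of cytochrome P450 genes and their reductase held 37 genes, of which 22 were compared. Of these, 19 were above the range and none below, with a median log2 difference from the mean of the 3 days of 1.68 (all genes -0.28), and 10 were higher by limma. At D1, 19 of the 22 lay above the range (all genes 9.44%). Of the 19 called at E18.5, 13 went further, 4 held and 2 came back. Over all genes named Cyp, including those outside the list, 33 were compared, 29 were above the range and none below, and at D1 13 of the 29 went further, 8 held, 5 came back in part and 3 came back into the range or past it. Cyp2e1, which oxidizes ethanol and small molecules around the central vein, was at 4.31, 5.47, 9.04, 89.8 and 728 FPKM. Cyp4a14, a fatty acid omega-hydroxylase, was at 0.734, 1.01, 1.17, 39.6 and 804 FPKM, and Cyp2d9 at 2.37, 4.82, 5.72, 45.0 and 214 FPKM. Por, the reductase that passes electrons to these enzymes, was at 29.4, 55.4, 51.8, 127 and 262 FPKM. By limma the contrast was 3.69 ± 0.40 for Cyp2e1 (adjusted p = 1.99e-06) and 1.51 ± 0.39 for Por (adjusted p = 0.0366), against adjusted p = 0.153 and 0.385 with median ratios. Each of these 4 was above all 3 preceding days at E18.5 and went further at D1. Cyp2e1, Cyp4a14 and Cyp2d9 were under 10 FPKM on all 3 preceding days. They entered the comparison through E18.5, which raises the share of the list above the range.

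The Cyp2c genes were split by what D1 did. All 6 genes compared in the Cyp2c cluster, which lie within 900 kb of chromosome 19 (files' build GRCm38.p2), were above the range, unlike Cyp2c44 elsewhere on the chromosome, and the window was chosen, like that of Cyp3a, after the values were seen. Cyp2c37 went on, at 0.554, 0.595, 0.635, 15.3 and 66.7 FPKM. Cyp2c70, which hydroxylates bile acids in rodents, came back, at 9.49, 17.6, 66, 159 and 18.9 FPKM. Cyp2c40 came back in part, at 3.31, 2.6, 15.6, 201 and 48.7 FPKM, as did Cyp2c69 and Cyp2c67, and Cyp2c68 returned to the range. The 5 genes compared in the Cyp3a cluster of chromosome 5 were also above the range and all went further at D1, among them Cyp3a11 at 11.3, 12.5, 26.7, 42.6 and 312 FPKM and Cyp3a25 at 0.661, 0.458, 1.09, 17.2 and 158 FPKM. Cyp2c37, Cyp2c67, Cyp2c69, Cyp3a25, Cyp3a41a and Cyp3a41b were under 10 FPKM on all 3 preceding days. They entered the comparison through E18.5, which raises the share above the range in both clusters. The Cyp2c window held 13 entries and the Cyp3a window 12. Members of these families are near-identical in sequence, Cyp3a41a and Cyp3a41b above all, and reads may be divided between them.

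The 250 bases before the start sites of 3 of these enzymes are shown because they hold the letters CAAAGTCCA, a form of the site bound by the hepatocyte factor HNF4, which was searched on both strands. They are from RefSeq (GRCm38.p6), read 5′ to 3′ along the gene, with the match in capitals: Cyp2c40 (chr19:39812815-39813064, minus strand), Cyp2c69 (chr19:39886770-39887019, minus strand) and Cyp8b1 (chr9:121916306-121916555, minus strand), the last a bile acid enzyme described below.
Cyp2c40: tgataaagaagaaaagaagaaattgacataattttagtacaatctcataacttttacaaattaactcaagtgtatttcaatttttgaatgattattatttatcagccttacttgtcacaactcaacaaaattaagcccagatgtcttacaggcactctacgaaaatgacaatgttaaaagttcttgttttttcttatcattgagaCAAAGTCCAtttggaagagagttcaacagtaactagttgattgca
Cyp2c69: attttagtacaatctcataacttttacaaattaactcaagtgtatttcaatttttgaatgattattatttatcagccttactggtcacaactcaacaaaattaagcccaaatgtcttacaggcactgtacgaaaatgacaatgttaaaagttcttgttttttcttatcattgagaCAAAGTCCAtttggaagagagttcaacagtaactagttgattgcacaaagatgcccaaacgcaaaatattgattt
Cyp8b1: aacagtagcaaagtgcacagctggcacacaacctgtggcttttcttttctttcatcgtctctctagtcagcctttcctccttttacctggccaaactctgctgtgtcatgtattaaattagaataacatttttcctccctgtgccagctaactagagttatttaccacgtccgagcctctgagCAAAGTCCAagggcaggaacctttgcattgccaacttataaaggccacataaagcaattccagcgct
The Cyp2c40 and Cyp2c69 windows carry the same stretch around the match, which lies 45 and 75 bases before their annotated starts. Of the 262 genes above the range with a promoter in the table, 11 (4.2%) had the match, 5 Cyp2c genes, 4 Cyp3a genes, Cyp8b1 and Slc3a1, against 0.593% of the 5057 genes compared that had a promoter and 0.451% of all genes in the table. Outside genes named Cyp, 1 of 238 (0.42%) had it. The count thus came from gene families that share sequence, and a match of letters does not show that the factor bound there.

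Bile acid synthesis and transport had 10 of 15 compared genes above the range and none below, with a median log2 difference of 1.37, and 6 higher by limma. Cyp7a1, the rate-limiting enzyme of bile acid synthesis, was at 0.608, 0.961, 6.97, 17 and 5.52 FPKM, so that D1 was back in the range. It was not called by limma (adjusted p = 0.142). Cyp8b1, which directs synthesis to cholic acid, was at 1.94, 13.5, 23.2, 60.5 and 77.0 FPKM and held. The uptake carrier Slc10a1 was at 4.99, 15.2, 43.9, 135 and 165 FPKM and the export pump Abcb11 at 9.22, 9, 20.2, 53.1 and 30.0 FPKM. Nr1h4, the nuclear receptor FXR that senses bile acids, was at 5.63, 6.05, 15.1, 31.5 and 20.6 FPKM. In these genes E17.5 was already the highest of the preceding days. D1 stayed at the E18.5 level for Cyp8b1 and Slc10a1 and came down for Abcb11 and Nr1h4, though not to the range.

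For gluconeogenesis and glucose release, 5 of 9 compared genes were above the range (Fbp1, G6pc, Pck1, Pcx and Slc37a4), none was below, and 2 were higher by limma. Over all genes compared, 5.4% were above. G6pc and Pck1 were under 10 FPKM on all 3 preceding days and entered the comparison through E18.5, which raises the share of this list above the range. Pck1, the enzyme that commits carbon to glucose, was at 2.71, 2.56, 3.76, 11.9 and 424 FPKM. By limma Pck1 was not called (1.70 ± 0.72, adjusted p = 0.224). Fbp1, fructose bisphosphatase, was at 11.6, 76.6, 386, 710 and 991 FPKM. Ppp1r3c, which targets a phosphatase to glycogen, was at 2.72, 6.09, 8.77, 26.6 and 5.68 FPKM and back in the range at D1. It was the 1 gene above of 11 compared for glycogen metabolism, where leaving out E17.5 gave 6.

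Fatty acid oxidation and ketogenesis had 7 of 25 compared genes above the range at E18.5 and 22 of 25 above it at D1 (all genes 9.44%). Leaving out E17.5 gave 12 at E18.5, median ratios 13, and the other scalings 8 to 12. Cpt1a, which admits long-chain fatty acids to mitochondria, was at 4.59, 6.17, 9.42, 26.9 and 150 FPKM. Of the 7 genes above, 6 went further at D1. In cholesterol synthesis 1 of 22 genes, Insig1, was above at E18.5 (4 above and 2 below without E17.5, and 4 above with median ratios) and 14 of 22 lay below the range at D1. Over all genes 5.4% were above at E18.5, near the share in cholesterol synthesis, and 13.8% were below at D1. In fatty acid synthesis 2 of 14 compared genes, Elovl5 and Thrsp, were above at E18.5 and none below, with a median log2 difference of 0.55. With median ratios 7 were above, and without E17.5 5. At D1, 4 of the 14 lay above the range and 6 below. Fasn, fatty acid synthase, did not leave the range by 1.5-fold at E18.5, at 23.7, 28.5, 32.1, 44.2 and 7.48 FPKM.

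In the urea cycle 3 of 10 compared genes were above the range and in amino acid catabolism 5 of 26, with 1 below (Aass, not called with median ratios), and without E17.5 the catabolic genes were 10 above and 3 below. Cps1, the entry step of the urea cycle, was at 6.56, 27.8, 65.8, 142 and 95.7 FPKM, and Arg1 at 40.7, 93.7, 195, 309 and 432 FPKM. Both had gone up on every preceding day and held at D1. Agxt, a peroxisomal aminotransferase, was at 9.72, 17.2, 22, 51.1 and 404 FPKM. By D1, 15 of the 26 catabolic genes lay above the range. Over all genes compared, 5.4% were above at E18.5 and 9.44% at D1.

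Plasma carrier and protease inhibitor genes had 13 of 27 compared above the range and 1 below, with a median log2 difference of 1.07, and 9 higher and 1 lower by limma. Ahsg, fetuin-A, was at 2211, 6095, 9755, 18262 and 23677 FPKM, and Hrg, a histidine-rich plasma protein, at 2.96, 9.59, 30.9, 125 and 441 FPKM. Trf, the iron carrier transferrin, reached its highest of all 15 ages at E18.5, at 4018, 9382, 12534, 18882 and 10798 FPKM. A2m, a broad protease inhibitor, was at 47.2, 104, 201, 372 and 14.3 FPKM, also at its highest of the 15 ages. The first pair held or went on at D1, whereas Trf came back into the range and A2m was under all 3 preceding days.

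The serpin genes of chromosome 12 went in opposite directions within 798 kb (103616675 to 104414329, GRCm38.p2, a window chosen after the values were seen). Of 13 genes compared there, among 38 entries, 7 were above the range and 1, Serpina6, was below. The shares over all genes compared were 5.4% above and 6.53% below. Serpina3k, Serpina3m and Serpina4-ps1 were under 10 FPKM on every preceding day. Their entry into the comparison through E18.5 raises the share of the window above the range. Serpina6 encodes the carrier of glucocorticoids in blood and was at 1605, 1039, 556, 17.6 and 7.18 FPKM, 30.0-fold under the lowest preceding day and lower again at D1. Serpina1e, an alpha-1-antitrypsin copy, was at 499, 975, 1774, 7748 and 3367 FPKM, while Serpina1b was at 1264, 1916, 2097, 2262 and 4023 FPKM and inside the limit. Serpina11 was at 17, 32.6, 58.5, 239 and 219 FPKM. Serpina3m was at 0.537, 0.835, 0.706, 30.8 and 201 FPKM and Serpina3n at 2.40, 7.73, 16.9, 78.8 and 410 FPKM. The E18.5 values of Serpina6 and Serpina3k, members of the same cluster, were thus 17.6 and 235 FPKM after preceding values of at least 556 and at most 7.12 FPKM. Serpina1 copies are near-identical, so reads may be divided between them.

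**Figure D3:**
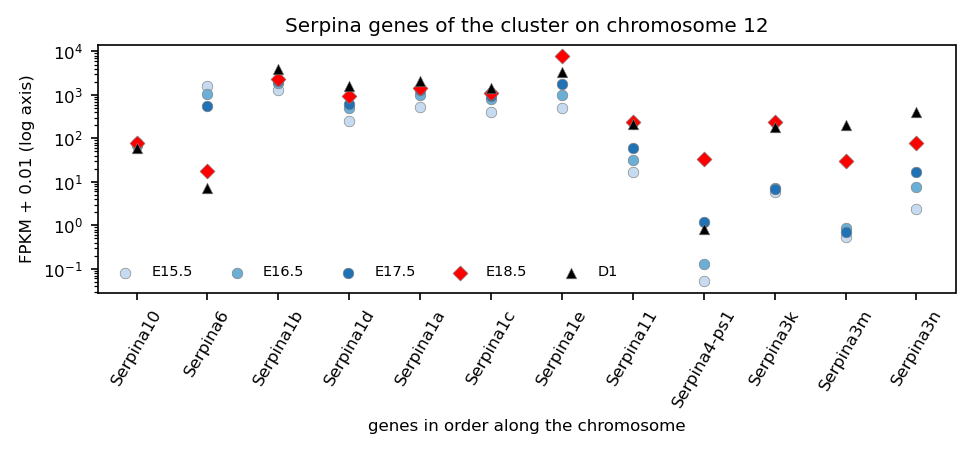
FPKM + 0.01 (log axis) of the serpin genes compared in the chromosome 12 cluster, in their order along the chromosome, with blue circles for E15.5, E16.5 and E17.5, a red diamond for E18.5 and a black triangle for D1. Serpina6 lies far under its blue points, while Serpina1e, Serpina11, Serpina4-ps1, Serpina3k, Serpina3m and Serpina3n lie clear above theirs.

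Apolipoproteins and lipoprotein export had 8 of 17 compared genes above the range, none below and 6 higher by limma. Apoc3, which slows triglyceride clearance, was at 17.4, 22.5, 37.0, 348 and 327 FPKM, 9.19-fold over the highest day. Its neighbours on chromosome 9, Apoa1 and Apoa5, were above as well, Apoa1 at 4497, 8535, 9965, 15877 and 27535 FPKM. Of the 8, 4 went further at D1 and 4 held. Apob, the structural protein of very low density lipoprotein, was at 50.4, 31.3, 68.2, 68.4 and 146 FPKM and did not leave the range.

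Coagulation genes had 8 of 19 compared above the range and complement 5 of 15, with none below in either, against 16 and 11 without E17.5 and 14 and 8 with median ratios. The 3 fibrinogen chains had like courses: Fgb was at 684, 895, 2219, 5360 and 3019 FPKM, Fgg at 687, 1011, 2343, 5155 and 2942 FPKM, and Fga at 480, 756, 1365, 2976 and 1923 FPKM, each called above and back in part at D1. Mbl2, a lectin of complement activation, was at 3.21, 3.76, 14.9, 74.3 and 139 FPKM. Of the acute phase list, 6 of 17 were above and 1 below (11 above without E17.5). Apcs, serum amyloid P, was at 42.9, 47.0, 166, 699 and 810 FPKM, while Socs3, a target of cytokine signalling, was below at 10.6, 10.9, 8.65, 5.35 and 4.49 FPKM. Socs3 was no longer below with median ratios, with globins left out of the totals or with the GC trend removed.

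Of hepatocyte transcription factors, 5 of 17 compared were above the range (9 without E17.5 and 9 with median ratios) and none below. Nr1i3, the xenobiotic receptor CAR, was at 1.23, 1.92, 2.30, 14.4 and 51.2 FPKM. Creb3l3, a membrane-bound factor of fasting metabolism, was at 21.3, 34.2, 32.2, 66.7 and 145 FPKM, and Foxa2 at 6.53, 5.77, 10.1, 15.7 and 8.97 FPKM. Hnf4a itself was at 43.8, 49.6, 49.8, 67.8 and 98 FPKM, within 1.5-fold of the range. The glucocorticoid-responsive list had 4 of 12 above (Cdkn1a, Igfbp1, Pck1 and Tsc22d3) and 2 below (Mt1 and Mt2), against 7 and 3 without E17.5. Cdkn1a, an inhibitor of cell division, was at 4.05, 5.41, 10.3, 28.5 and 17.1 FPKM.

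**Figure D4:**
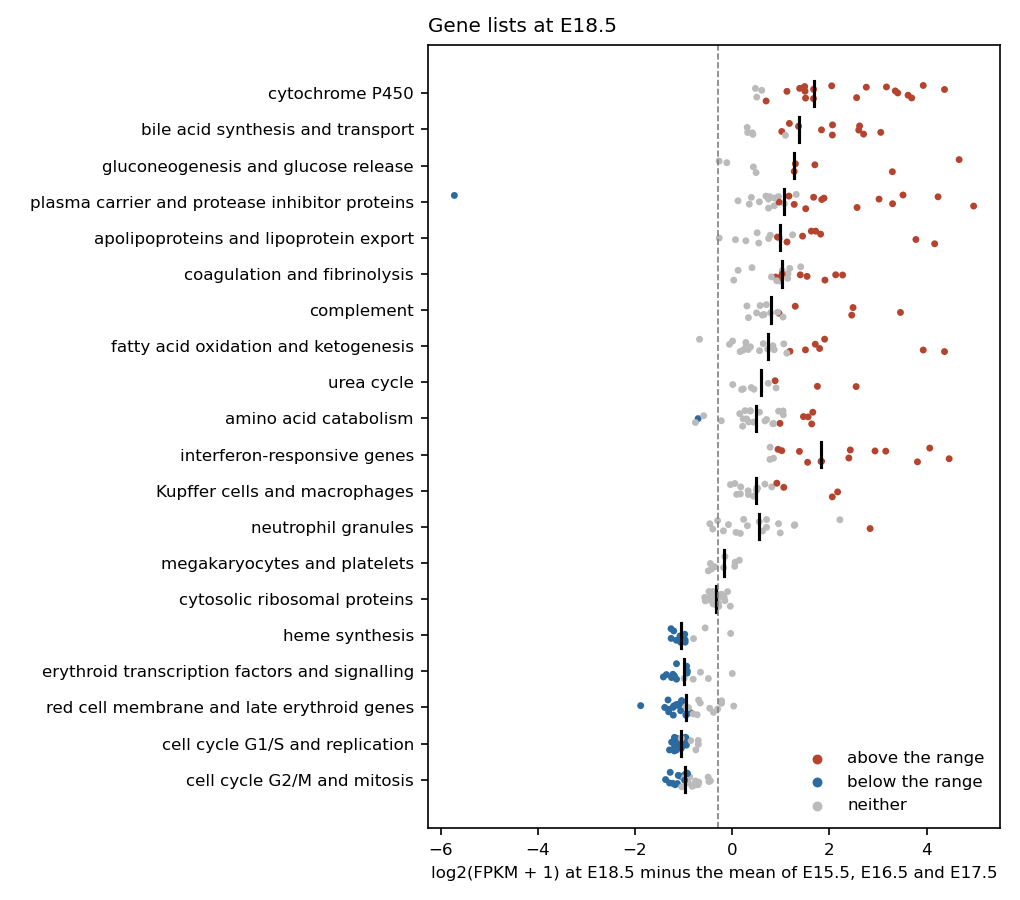
log2(FPKM + 1) at E18.5 minus the mean of E15.5, E16.5 and E17.5 (x axis) for the compared members of 20 gene lists, red above the range, blue below it and grey neither, with the list median as a black bar and the median of all genes as a dashed line. Hepatocyte and interferon lists lie to the right, heme, red cell and cell cycle lists to the left, and Serpina6 is the single blue point at the far left.

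Interferon-responsive genes also mostly left the range upward. Interferons are secreted in antiviral defence, and they turn on genes whose promoters hold a response element. The upstream 250 bases of 4 of them are shown because they hold its core, the letters GAAA, then NN, then GAAA, on either strand, in capitals (RefSeq, GRCm38.p6, 5′ to 3′ along the gene): Isg15 (chr4:156200819-156201068, minus strand), Rsad2 (chr12:26456453-26456702, minus strand), Ifit3 (chr19:34583279-34583528, plus strand) and Oas1a (chr5:120907526-120907775, minus strand).
Isg15: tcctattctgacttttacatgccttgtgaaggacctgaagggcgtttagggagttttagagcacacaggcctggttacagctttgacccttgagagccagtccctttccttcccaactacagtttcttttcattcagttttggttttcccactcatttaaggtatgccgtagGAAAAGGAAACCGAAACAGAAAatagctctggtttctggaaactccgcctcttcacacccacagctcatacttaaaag
Rsad2: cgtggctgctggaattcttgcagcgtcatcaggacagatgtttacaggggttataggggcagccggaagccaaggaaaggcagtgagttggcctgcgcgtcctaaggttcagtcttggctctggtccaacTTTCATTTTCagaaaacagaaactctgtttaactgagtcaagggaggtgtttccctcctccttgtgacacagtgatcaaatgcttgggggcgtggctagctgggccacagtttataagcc
Ifit3: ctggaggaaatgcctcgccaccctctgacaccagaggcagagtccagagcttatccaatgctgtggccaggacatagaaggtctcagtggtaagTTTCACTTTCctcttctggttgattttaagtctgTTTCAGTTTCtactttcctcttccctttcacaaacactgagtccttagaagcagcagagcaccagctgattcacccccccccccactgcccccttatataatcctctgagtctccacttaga
Oas1a: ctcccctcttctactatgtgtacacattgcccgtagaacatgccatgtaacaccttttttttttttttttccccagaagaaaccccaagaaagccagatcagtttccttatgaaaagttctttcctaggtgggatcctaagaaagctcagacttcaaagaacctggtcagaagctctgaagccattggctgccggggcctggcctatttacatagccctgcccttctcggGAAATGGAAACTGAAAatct
In Isg15 3 matches overlap, from 78 bases before the start site, and in Oas1a 2 overlap. Of the 8 list members above the range that had a promoter in the table, 5 (62.5%) held the core, Bst2 being the fifth, against 3.12% of genes compared and 3.46% of all genes in the table. The list holds known interferon targets, so the element is part of how such genes are defined, and no binding was measured.

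Of 16 compared members, 13 were above the range and none below, with a median log2 difference of 1.84, and 8 were higher by limma. E18.5 was the highest of the 4 values in all 16. Ifit3, Irf7, Oas1a, Usp18 and Iigp1 were under 10 FPKM on all 3 preceding days. They entered the comparison through E18.5, which raises the share of the list above the range and with E18.5 highest. Isg15, a ubiquitin-like antiviral protein, was at 11.1, 4.64, 27.6, 275 and 52.4 FPKM. Rsad2, viperin, was at 3.52, 2.69, 15.5, 90.4 and 33.9 FPKM. Irf7, a factor that amplifies the interferon response, was at 5.97, 3.69, 8.63, 59.9 and 30.2 FPKM, and Usp18, which trims Isg15 from proteins, at 2.89, 2.43, 4.57, 21.2 and 12 FPKM. All 4 came back in part at D1. Iigp1, an interferon-induced GTPase, instead went further, at 0.527, 0.199, 5.79, 37.8 and 70.8 FPKM. By limma the contrast was 4.47 ± 0.51 for Isg15 (adjusted p = 4.55e-06), 3.81 ± 0.54 for Rsad2 (adjusted p = 0.000111) and 3.16 ± 0.43 for Irf7 (adjusted p = 6.22e-05). With median ratios the adjusted p was 0.301, 0.378 and 0.154, and with the GC trend removed 0.31, 0.31 and 0.275. Bst2, tetherin, was at 44.3, 32.6, 59.6, 160 and 94 FPKM.

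The median FPKM of the 16 members was 3.60, 4.99, 6.10, 7.40, 5.07 and 15.5 from E12.5 to E17.5, 42.6 at E18.5, 32.1 at D1 and 18.3 to 33.3 at the later ages. E17.5 was the highest of the 3 preceding days in 14 of the 16 (18.7% of all genes compared), and E16.5 was the lowest in 12. Of the 13 genes above, 7 came back in part at D1, 3 held and 3 went further. At D1, 14 of the 16 lay above the range (all genes 9.44%). The interferon genes Ifna1, Ifnl2 and Ifnl3 were listed at 0 in all libraries, Ifnb1 was at 0 at E18.5, and Ifng was at 0.210 FPKM there. Of the 52 genes above the range whose E18.5 value was the highest of all 15 ages, 6 belonged to this list. The list made up 16 of the 6812 genes compared.

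**Figure D5:**
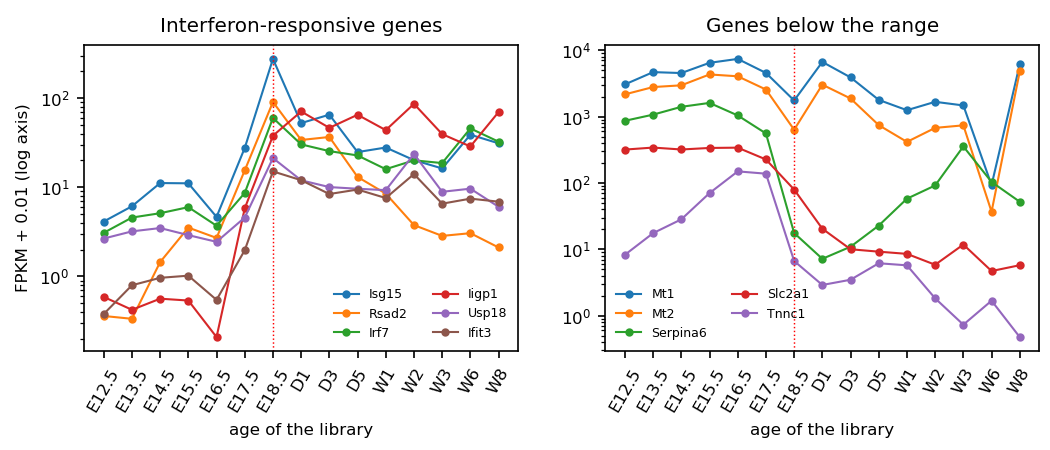
FPKM + 0.01 (log axis) by age of library for 6 interferon-responsive genes (left) and 5 genes below the range (right), with E18.5 as the dotted line. Isg15, Rsad2, Irf7 and Ifit3 peak at E18.5 and Iigp1 does not, while Mt1 and Mt2 dip at E18.5, are high again at D1 and are lower by D5.

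Markers of other cell types were followed for comparison. Over all genes compared, 5.4% were above the range and 6.53% below it. Counts of 1 gene in the lists that follow are near those shares, while the Kupffer and stellate cell counts above the range are larger. Of 17 compared Kupffer cell and macrophage genes, 4 were above the range (C1qa, C1qc, Clec4f and Vsig4), none was below and the median log2 difference was 0.50. With median ratios 8 were above, and the other scalings gave 5 to 9. Clec4f, a lectin of Kupffer cells, was at 7.93, 16.3, 33.8, 77.9 and 67.6 FPKM, and the general macrophage gene Cd5l at 68.8, 99.5, 83.8, 88.7 and 95.1 FPKM. Of 19 neutrophil granule genes 1, Retnlg, was above (6 without E17.5 and 3 with median ratios), and of 12 sinusoidal endothelial genes 2, Clec4g and Fcgr2b (4 with median ratios). In stellate cells and fibroblasts 4 of 11 were above and Col1a1 was below (none below under any of the 4 other scalings), and in megakaryocytes 0 of 9 left the range. The summed level of the Kupffer cell list was 686 to 911 FPKM over the 3 preceding days, 1217 at E18.5 and 1264 at D1, and that of the neutrophil list 2568 to 7334, 6484 and 6036 FPKM. The part of these cells in the interferon values was not tested.

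The genes farthest below the range were of several kinds. After Serpina6 came Tnnc1, the calcium-binding troponin of slow muscle, at 70.2, 149, 138, 6.65 and 2.89 FPKM, 9.31-fold under the lowest preceding day. Cited1, a transcriptional co-regulator active in embryos, was at 57.2, 42.7, 18.1, 1.73 and 0.747 FPKM. Car3, a carbonic anhydrase, was at 124, 68.7, 77.9, 17.5 and 14.7 FPKM. By limma these were at -3.90 ± 0.41, -3.74 ± 0.44 and -2.25 ± 0.39 on the log2 scale (adjusted p = 1.20e-06, 5.83e-06 and 0.00111), with adjusted p = 0.205, 0.205 and 0.274 with median ratios. Tnnc1 and Cited1 went on at D1 and Car3 held. Dlk1, an imprinted gene of fetal growth, was at 440, 474, 259, 104 and 38.9 FPKM, and has a second entry on an unplaced scaffold that may take part of its reads. Mdk, the growth factor midkine, was at 24.7, 15.9, 17.2, 5.17 and 13.2 FPKM, back in part at D1.

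The metallothioneins, small proteins that bind zinc and copper, reversed at D1. Mt1 was at 6447, 7386, 4542, 1746 and 6649 FPKM and Mt2 at 4307, 4042, 2553, 633 and 3022 FPKM. Mt1 and Mt2 lie side by side on chromosome 8 and their E18.5 values were 2.6-fold and 4.03-fold under the lowest preceding day, with D1 back inside the range for both. The low level was not limited to E18.5: they were at 1781 and 742 FPKM at D5 and 1246 and 415 FPKM at W1. Single libraries differed widely, with 92.8 and 36.8 FPKM at W6 and 6112 and 4785 FPKM at W8. Slc39a8, a zinc importer, was below too, at 39.6, 26.2, 20.6, 11.1 and 9.64 FPKM, and Slc39a4, another zinc importer, was above at 19.4, 29.0, 29.4, 48.7 and 27.7 FPKM. Of 9 genes of metal handling compared, these 3 were below and 1 above (3 above without E17.5). Mt1 and Mt2 were lower by limma (adjusted p = 0.00218 and 0.000111, against 0.345 and 0.154 with median ratios), and both stayed below the range under every scaling. Slc39a8 lost its call with the GC trend removed. Among other genes that were below and came back into the range at D1 were the cold-responsive Rbm3, at 320, 277, 230, 148 and 367 FPKM, and the collagen Col1a1, at 38.4, 53.6, 23.7, 15.4 and 35.4 FPKM. Rbm3 was no longer below with median ratios, with globins left out or with the GC trend removed, and Col1a1 was no longer below under any of the 4 scalings.

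Genes of the red cell lineage were mostly below the range or close to its lower end. Heme synthesis had 10 of 13 compared genes below, the erythroid transcription factors and signalling genes 10 of 15, and the red cell membrane and late erythroid genes 19 of 31, with none above in any of them and medians of -1.05, -0.99 and -0.95 (all genes -0.28). By limma 0, 1 (Tal1) and 1 (Slc2a1) of them were lower, and with median ratios the numbers below were 4, 4 and 11. Slc2a1, the glucose carrier GLUT1, was at 336, 340, 226, 79.4 and 20.4 FPKM. Slc4a1, the anion exchanger band 3, was at 1062, 1364, 710, 434 and 261 FPKM. Tal1, a master factor of blood cells, was at 107, 94.4, 62.3, 31.5 and 17.9 FPKM, and Klf1 at 309, 336, 197, 117 and 62.1 FPKM. In these genes E17.5 was already lower than both earlier days, and D1 went further.

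Alas2, the first enzyme of heme synthesis in red cells, was at 716, 914, 614, 425 and 234 FPKM and missed the limit of 1.5-fold. The embryonic globins Hbb-bh1 (46.5, 17.3, 5.97, 2.79 and 0.608 FPKM) and Hba-x (80.4, 65.1, 32.4, 19 and 2.65 FPKM) were below the range and went on, Hba-x missing the limit with median ratios. The adult globins could not be placed, since the estimates of Hba-a1 and Hba-a2 had failed at all 3 preceding days, Hbb-bs at E15.5 and E16.5 and Hbb-bt at E16.5. For Hbb-bs the values that exist were 82747 FPKM at E17.5, 55600 at E18.5 and 25053 at D1. The summed level of the red cell list was 5104 to 7007 FPKM over the 3 preceding days, 3203 at E18.5 and 1910 at D1, beside which the hepatocyte lists stood higher, and its part in their values was not tested. At D1, 12 of the 13 heme genes and 28 of the 31 red cell genes lay below the range of the 3 days (all genes 13.8%).

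Genes of cell division lay low at E18.5. Of the G1/S and replication genes 19 of 27 were below the range, and of the G2/M and mitosis genes 14 of 27, with none above. No member of either list was lower by limma, and with median ratios 5 and 2 were below. The upstream windows of Cdk1 (chr10:69352913-69353162, minus strand), the kinase that starts mitosis, and Ccnb1 (chr13:100786487-100786736, minus strand), its cyclin partner, are shown because they hold several CCAAT boxes, and in Cdk1 also TTTGAA, the core of the cell cycle homology region, both searched on either strand (RefSeq, GRCm38.p6, matches in capitals).
Cdk1: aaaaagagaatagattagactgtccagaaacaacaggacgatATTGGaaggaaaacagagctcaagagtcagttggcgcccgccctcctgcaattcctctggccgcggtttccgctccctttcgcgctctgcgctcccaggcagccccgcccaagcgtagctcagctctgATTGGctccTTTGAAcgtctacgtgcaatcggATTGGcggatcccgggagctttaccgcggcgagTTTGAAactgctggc
Ccnb1: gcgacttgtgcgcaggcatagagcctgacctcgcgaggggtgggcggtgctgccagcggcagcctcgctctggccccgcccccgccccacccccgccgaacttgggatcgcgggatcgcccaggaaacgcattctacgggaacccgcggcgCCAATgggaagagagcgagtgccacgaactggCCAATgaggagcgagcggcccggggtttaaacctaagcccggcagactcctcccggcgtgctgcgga
CCAAT was found in 9 of the 10 G2/M genes below that had a promoter in the table (90.0%), against 41.7% of genes compared, and TTTGAA in 4 of 10 (40%), against 12.5%. The list was made of cell cycle genes, and its members not below the range were not set beside these. The shares therefore say nothing about the E18.5 values. These letters are short and frequent, and the matches are a description of the windows.

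Cdk1 itself was at 61.6, 46.4, 37.5, 23.4 and 20.9 FPKM and Ccnb1 at 88.9, 65.3, 46.8, 28.2 and 22.5 FPKM. Mcm2, a subunit of the replicative helicase, was at 128, 119, 68.1, 42.1 and 28.6 FPKM, and Rrm2, which supplies deoxynucleotides, at 318, 225, 198, 106 and 72.9 FPKM. E18.5 was the lowest of the 4 in all 27 G1/S genes and in 23 of 27 G2/M genes, against 54.5% of all genes compared. At D1, 18 of the 19 G1/S genes below held and 1 went further, and of the 14 G2/M genes 11 held and 3 went further. Which cells carried these values was not tested.

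Of the 368 genes above, 52 had their highest value of all 15 ages at E18.5. At D1, 19 of these 52 held within 1.5-fold, 17 came back in part and 16 came back into the range or past it, the last being among the 40 of the 368 that did so. The choice of the 52 used D1, so none of them could go further there, and their split cannot be set against that of the 368. Among genes that came back into the range or past it, Hsd3b6 and Pfkfb1 belonged to the 52, and Thrsp, Uox and Adh1 did not. Hsd3b6, a steroid dehydrogenase, was at 2.36, 1.64, 1.70, 22.2 and 0.684 FPKM and at 0.0336 FPKM at W8. Thrsp, a lipogenic protein responsive to thyroid hormone, was at 0.234, 0.169, 1.08, 11.2 and 0.138 FPKM. Pfkfb1, which sets the level of a regulator of glycolysis, was at 5.18, 6.41, 29.2, 73.4 and 17.9 FPKM. Uox, urate oxidase, was at 14.7, 48.4, 170, 369 and 69.9 FPKM, and Adh1, alcohol dehydrogenase, at 25.9, 107, 394, 797 and 309 FPKM. Uox and Adh1 had gone up on every preceding day, whereas Hsd3b6 had been flat. Thrsp, Uox and Adh1 were higher later than at E18.5, at 323 FPKM (W6), 431 FPKM (W3) and 2434 FPKM (W3). By limma Thrsp was not called (log2 contrast 3.08 ± 1.68, adjusted p = 0.35), while Hsd3b6 was (3.01 ± 0.79, adjusted p = 0.0385, against 0.346 with median ratios). Uox, Adh1 and Pfkfb1 were chosen after their values were seen.

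In several lists no gene passed the 1.5-fold limit. None of 25 ribosomal protein genes, 13 genes of the mitochondrial genome, 21 nuclear respiratory chain genes, 19 ribosome biogenesis genes or 14 immediate early genes was called above or below. E18.5 was the lowest of the 4 values in 20 of the ribosomal protein genes and 14 of the ribosome biogenesis genes, against 54.5% of all genes compared. Their median log2 differences were -0.33, -0.08, -0.13, -0.57 and 0.01, beside -0.28 for all genes, and the signs for the mitochondrial genome and the respiratory chain changed with the scaling. Without E17.5, 4 ribosomal protein genes, 9 ribosome biogenesis genes and 1 immediate early gene were below, and with median ratios 3 immediate early genes were above. Afp, the fetal albumin-like protein, was at 9471, 9523, 13172, 11514 and 8884 FPKM, and the imprinted RNA H19 at 2720, 4569, 4126, 5423 and 4872 FPKM. Both were thus near their preceding levels while other fetal genes such as Dlk1 and Cited1 were below the range.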

How the data were processed

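For each of the 15 liver libraries the authors deposited a table of FPKM per gene with lower and upper bounds at 95% confidence and an estimate status, per the file headers. The submitters' processing notes list Bowtie 0.12.2 and FastQC without their roles, with GRCm38.p2 as build, and the program that computed FPKM is not given in the sources used here. Per the labels' protocols, flash-frozen tissue was extracted with Trizol and sequenced on an Illumina HiSeq.

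Entries on unplaced scaffolds and failed estimates were left out. Values were taken as log2(FPKM + 1), which understates changes of low genes, and each fold is a ratio of FPKM + 1. The files hold no counts, so depth was estimated from the authors' bounds over 293 to 309 genes with a single exon in the 4 libraries, and floors cover counting error only. The range rule is no test. limma 3.58.1 (trend option, R 4.3.3) compared E18.5 with the mean of the 3 days, two-sided, with Benjamini-Hochberg adjustment over 6812 genes. The range rule and limma were also run on simulated data with the spread of the 3 days. There the range rule called 54% of true log2 changes of 1 and 3.81% of genes without change, and limma a smaller share of each. Promoters were searched over 250 bases in Python 3.11.15.

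The genes compared and the 62 lists were chosen with earlier results of these data known. The rule for named genes took the 15 farthest above and the 15 farthest below, up to 3 called members and the most abundant member of each list, and the 5 called genes that went farthest on and farthest back at D1. Genes in the text that this rule did not take, other than checks of libraries and failed estimates, were chosen after their values were seen: Aass, Adh1, Ahsg, Akr1b7, Apob, Bst2, Cd5l, Cdk1, Ces3a, Col1a1, Cyp2a4, Cyp2c67, Cyp2c68, Cyp2d9, Cyp3a11, Cyp7a1, Cyp8b1, Fasn, Foxa2, Hrg, Ifit3, Irf9, Mcm2, Oas1a, Oasl2, Pcx, Pemt, Pfkfb1, Por, Rsad2, Rtp4, Serpina11, Serpina1b, Serpina1e, Slc37a4, Slc39a4, Slc3a1, Slc4a1, Socs3, Tsc22d3, Uox and Usp18. Alternatives were the pseudocount, the filter, scaling, a GC trend, days left out or added, a 2-fold limit and the bounds. Some genes counted in the lists are not reported here by name.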

Additional observations from a re-analysis of the deposited data

How the results depend on the processing

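With a pseudocount of 0.1, 381 genes lay above and 519 below the range. A pseudocount of 5 left 235 below (214 of them also at D1) and 23 lower by limma. Without a filter beyond 1 FPKM, 690 were above (450 also at D1), 49 higher and 3 lower by limma. At 50 FPKM, 159 were above (121 also at D1), 215 below (199), 12 higher and 8 lower. At a mean of 10 FPKM, 45 were higher and 12 lower. Median ratios left 406 above at both ages, 146 below (128 at D1 too), 1 higher and 0 lower. After removal of the GC trend 153 were below (138 at D1 too), 1 higher and 0 lower. Quantile normalization gave 2 higher and 1 lower, and leaving globins and Alas2 out of the totals 200 higher. With E14.5 added 1 was higher and 1 lower, and with a slope over the 7 embryonic days 8 and 4. At 2-fold, 163 were above (115 at D1 too) and 32 below (22). With 1 preceding day left out, genes above ranged from 389 to 624, below from 458 to 1460, above at both ages from 281 to 489, below at both from 384 to 1106, higher by limma from 15 to 207 and lower from 3 to 69. The high range counts and the low limma counts came without E17.5, and the high limma counts without E15.5, while without E16.5 limma gave 131 higher and 22 lower. Leaving out a day narrows the range by construction. Of 171 named genes, 138 were called and 68 of these kept their call under every alternative, and of 2478 recomputed values 0 reversed, 117 lost and 17 gained a call. In list counts, an alternative chosen after seeing the data, leaving out E16.5 moved G2/M genes below from 14 to 20 and red cell genes from 19 to 22, and leaving out E17.5 moved coagulation genes above from 8 to 16, fatty acid oxidation genes from 7 to 12, amino acid catabolism genes from 5 to 10 and complement genes from 5 to 11. No paired analysis was possible because each age has 1 library. With no replicate at E18.5, an odd library and an age cannot be told apart.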

Other observations

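Beyond the list, 10 further genes known to respond to interferon were picked from the data after their values were seen. With them, 14 of the 52 genes at their highest of 15 ages at E18.5 were interferon-responsive. The choice of the 10 raised this count, so it does not measure how common such genes were. Oasl2, of the oligoadenylate synthetase family, was at 1.78, 1.06, 2.52, 13.6 and 9.47 FPKM, by age from E15.5 to E18.5 and at D1. Rtp4 was at 3.74, 1.98, 6.52, 23.7 and 20.1 FPKM, and Irf9, a transcription factor of the interferon response, at 18.3, 11.9, 17.5, 34.9 and 19.7 FPKM. Oasl2 and Rtp4 held at D1 and Irf9 came back in part.

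Pemt, Ces3a, Cyp2a4 and Akr1b7, all above the range, were chosen after their values were seen. Pemt, which makes phosphatidylcholine by methylation, was at 19.2, 61.1, 201, 719 and 453 FPKM, 3.57-fold over the highest day and back in part at D1. Ces3a, a carboxylesterase, was at 1.61, 1.88, 3.19, 37.7 and 50.5 FPKM and 1059 FPKM at W8. Cyp2a4, a steroid hydroxylase, was at 0.501, 0.700, 1.17, 11.6 and 6.00 FPKM. Akr1b7, an aldo-keto reductase, was at 11.9, 9.54, 40.7, 122 and 122 FPKM, held at D1, and was at 0.262 FPKM at W8. In Prlr, the prolactin receptor, the value was 0.0749, 0.0244, 0.414, 10.2 and 3.91 FPKM, near the level of 3 fragments at the earlier ages.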
